A study of Mus musculus with 4 samples.

Results

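HNKO 1 is one of 13 hepatocyte clusters among the 21 cell clusters that the study named in mouse liver nuclei, and it held 664 of the 5193 nuclei in the data set. Its members were taken by the cluster name deposited for each nucleus. Since the clustering used the same RNA levels, differences between this cluster and others are described here without a test. The cluster came from 1 animal: 658 of the 664 nuclei (99.1%, exact binomial 95% interval 98.0 to 99.7) carried the hashtag of HNKO mouse 1, and 1 nucleus came from HNKO mouse 2, 2 from WT mouse 2 and 3 from WT mouse 3. HNKO 1 made up 81.0% of the hepatocyte nuclei of HNKO mouse 1 (658 of 812, interval 78.2 to 83.7). The cluster and that mouse therefore cannot be told apart, and no value below says how HNKO mice differ as a group unless it is given over mice.

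The livers came from 6 adult female mice on a C57BL6/BomTac background, kept for several weeks on a purified control diet. The 3 HNKO mice were Nampt fl/fl and Alb-Cre+/-, so Cre from the albumin promoter removed Nampt in hepatocytes and, as far as that promoter is active, in other cells of the hepatoblast lineage. The 3 WT mice were littermates that carried the same floxed Nampt alleles without Cre, so Cre itself differed between the groups too. Nuclei of each mouse were tagged with one oligonucleotide-labeled antibody (a hashtag), pooled and sequenced from the 3′ end of the RNA in 2 pools. Mice are numbered here within genotype by the order of their hashtag names.

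Nampt encodes nicotinamide phosphoribosyltransferase, the enzyme that limits the salvage of nicotinamide into NAD, the electron carrier that also serves as substrate of sirtuins and PARPs. Hepatocytes divide their work along the liver lobule: periportal cells make urea and glucose, and pericentral cells make glutamine, bile acids and many of the cytochrome P450 enzymes. Hepatocytes can also make NAD from tryptophan and from nicotinic acid, routes that do not use NAMPT.

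HNKO 1 nuclei held more UMIs (unique molecular identifiers) per nucleus than WT hepatocyte nuclei. The 664 nuclei held 5522312 UMIs, with a median of 6097 UMIs and 2278.5 genes per nucleus. The 562, 711 and 654 WT hepatocyte nuclei outside the cluster had medians of 3584, 3572 and 4150 UMIs in WT mice 1, 2 and 3. The 154 other hepatocyte nuclei of HNKO mouse 1 had a median of 4268 UMIs. Levels are given below as CPM, the UMIs of a gene per 1000000 UMIs of the summed nuclei. In HNKO 1 the share of unspliced UMIs was 78.8%, against 73.7 to 75.4% in the WT mice. HNKO 2 (494 nuclei) and HNKO 3 (288 nuclei) are the other hepatocyte clusters named for the knockout without a zone, and 97.0% and 99.0% of them came from HNKO mouse 3. Their nuclei had medians of 5380 and 4367.5 UMIs. The mouse's own hashtag took a median of 80.8% of the hashtag counts of a nucleus in HNKO 1 but 46.6% in HNKO 2 and 49.2% in HNKO 3. All 5193 barcodes were distinct.

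The label was checked against hepatocyte genes. Albumin (Alb) was at 4586 CPM in HNKO 1 against 5436, 5619 and 7285 CPM in the 3 WT mice, and the hepatocyte regulator Hnf4a was at 338 CPM against 304, 279 and 359. All 8 hepatocyte identity genes examined were detected, with a median log2 difference of -0.44 from WT. Nampt, the targeted gene, was at 90.5 CPM in HNKO 1 (Poisson 95% interval 82.8 to 98.8) against 84.8, 104 and 96.6 CPM in the WT mice, so the summed Nampt signal did not separate HNKO 1 from WT. Reads from the 3′ end can lie outside the deleted part of a gene, in which case the Nampt level says nothing about the deletion. The hepatocyte label held, and the Nampt level did not check the genotype label.

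The 6 nuclei of other mice sat between the groups. They held 11.4 UMIs of the 5 cluster markers per 10000 UMIs, against 21.3 in the HNKO 1 nuclei of HNKO mouse 1 and 4.31 in WT hepatocytes, and in 3 of the 6 the hashtag with the next most counts was that of HNKO mouse 1. Leaving them out kept every one of the calls against WT given below.

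The 5 genes that mark HNKO 1 are Ntrk2, Slc10a2, Tmc7, Cxadr and Ablim3. Since the clustering used these genes, their levels describe the cluster. Counting intervals are exact Poisson 95% intervals and cover counting error only, and log2 differences are between HNKO 1 and the mean of the 3 WT mice after adding 1 CPM to both. A gene with at least 100 UMIs over the sums compared is called higher or lower here when HNKO 1 lies outside the range of the WT mice and differs from their mean by at least 4-fold.

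Ntrk2 encodes TrkB, the receptor tyrosine kinase for brain-derived neurotrophic factor and neurotrophin 4, and lies at chr13:58806569-59133970 on the plus strand (GRCm38). It was at 489 CPM in HNKO 1 (470 to 508, 2699 UMIs) against 30.8, 71.0 and 74.2 CPM in WT mice 1, 2 and 3 (58.7 ± 24.2, SD, n = 3), which is 8.33-fold. The other hepatocyte nuclei of HNKO mouse 1 were at 98.1 CPM, HNKO 2 at 130 and HNKO 3 at 178. HNKO 1 thus lay far above all of these, and the other hepatocyte nuclei of its own mouse lay nearer to WT than to HNKO 1.

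Slc10a2 encodes the apical sodium-dependent bile acid transporter, known for bile acid uptake in the ileum and in bile duct cells, and lies at chr8:5083219-5105351 on the minus strand. It was at 163 CPM in HNKO 1 (900 UMIs) against 37.2, 9.01 and 14.9 CPM in the WT mice (20.4 ± 14.9, SD, n = 3), a log2 difference of 2.94. The other hepatocyte nuclei of HNKO mouse 1 were at 130 CPM, so they shared the high Slc10a2 level, whereas HNKO 2 and HNKO 3 were at 37.7 and 36.9 CPM. Tmc7, a member of the transmembrane channel-like family at chr7:118535841-118584736 on the minus strand, was at 130 CPM (120 to 140) against 16.5, 11.9 and 57.9 CPM in the WT mice. WT mouse 3 was the highest of the WT mice, and the call for Tmc7 was lost when either of the others was left out: the log2 difference was 2.14 over the 3 WT mice, 1.86 without WT mouse 1, 1.78 without WT mouse 2 and 3.11 without WT mouse 3.

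Cxadr, the coxsackievirus and adenovirus receptor, is a cell adhesion protein of tight junctions and lies at chr16:78301489-78359774 on the plus strand. It was at 870 CPM in HNKO 1 (846 to 895) against 211, 178 and 112 CPM in the WT mice (167 ± 50.3, SD, n = 3), a 5.21-fold difference. HNKO 2 was at 644 CPM and HNKO 3 at 168, so HNKO 2 shared much of the high level and HNKO 3 did not. Ablim3 encodes an actin-binding LIM protein and was at 474 CPM (456 to 492) against 160, 122 and 188 CPM in the WT mice. The 3.03-fold difference of Ablim3 did not reach 4-fold, and the other hepatocyte nuclei of HNKO mouse 1 were higher than HNKO 1, at 561 CPM.

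**Figure D1:**
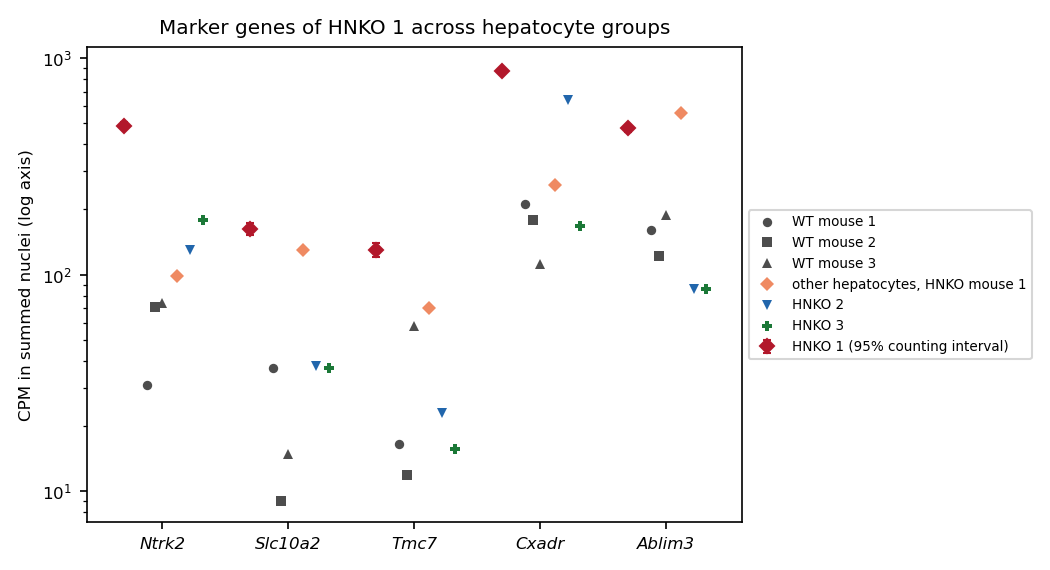
Levels of the 5 HNKO 1 marker genes in CPM on a log axis, in HNKO 1 (diamonds, with 95% counting intervals), the hepatocyte nuclei of the 3 WT mice outside HNKO 1, the other hepatocyte nuclei of HNKO mouse 1, HNKO 2 and HNKO 3. HNKO 1 lies above the 3 WT mice for all 5 genes, and for Ablim3 the other hepatocyte nuclei of its mouse lie higher still.

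The sequences upstream of Slc10a2 and Tmc7 are shown because these were, with Scara5, the genes past 4-fold over WT, HNKO 2 and HNKO 3 at once, and because Slc10a2 carries a binding motif of the hepatocyte factor HNF1. They are RefSeq promoter windows of 250 bases before the annotated start (GRCm38.p6), cut to the bases outside the GENCODE gene, at chr8:5105352-5105537 for Slc10a2 and chr7:118584737-118584936 for Tmc7, both read 5′ to 3′ on the minus strand. In the Slc10a2 sequence the first run of capitals is an HNF1 motif. The next one matches the AP-1 pattern searched, TGANTCA, which is loose because N allows any central base. Here that base is T. The Tmc7 sequence held none of the motifs searched.
Slc10a2: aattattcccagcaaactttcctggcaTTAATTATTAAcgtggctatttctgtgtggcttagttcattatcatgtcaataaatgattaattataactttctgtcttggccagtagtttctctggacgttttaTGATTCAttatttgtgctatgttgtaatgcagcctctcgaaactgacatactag
Tmc7: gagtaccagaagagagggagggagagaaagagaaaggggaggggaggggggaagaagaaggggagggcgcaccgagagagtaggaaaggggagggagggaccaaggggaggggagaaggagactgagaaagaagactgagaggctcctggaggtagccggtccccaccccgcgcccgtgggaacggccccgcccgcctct

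Motifs were searched on both strands in the full 250 bases. The AP-1 counts are of the same pattern with any central base. The HNF1 motif was present in 32 of 27025 promoters (0.118%), the AP-1 motif in 1856 (6.87%), the TEAD motif GGAATG in 3414 (12.6%) and the glucocorticoid receptor motif in 103 (0.381%). Among the 33 genes called higher in HNKO 1 that had a promoter in the table, 1 held the HNF1 motif (Slc10a2), 2 the AP-1 motif (Dnah5 and Slc10a2), 6 the TEAD motif and none the glucocorticoid receptor motif. Among 26 genes called lower the counts were 0, 1, 3 and 0. A letter match is a description of the window and not a bound site.

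The markers were widespread among HNKO 1 nuclei. To compare shares of nuclei across depths, each nucleus was thinned to 1000 UMIs. At least 1 UMI of Ntrk2 was then found in 36.4% of HNKO 1 nuclei (exact interval 32.8 to 40.2), against 2.31, 4.08 and 4.59% in the WT mice and 2.82% in endothelial nuclei of HNKO mouse 1, a cell type used as a guide to free RNA in the suspension (71 nuclei, median 3260 UMIs before thinning). Without thinning the share was 76.4%. For Slc10a2 the thinned share was 13.7% in HNKO 1 and 13.8% in Central HNKO 1, a cluster of 94 nuclei of which 93 came from the same mouse, against 1.13 to 2.31% in the WT mice. Cxadr was found in 42.6% of HNKO 1 nuclei, 41.9% of HNKO 2 nuclei and 9.86% of the endothelial nuclei. Cib3, a further high gene described below, was found in 11.7% of HNKO 1 nuclei and 17.8% of HNKO 2 nuclei, and in 0% of the endothelial nuclei. At least 1 of the 5 markers was seen in 82.2% of HNKO 1 nuclei and at least 2 in 43.7%, whereas 30.1 to 32.3% and 2.95 to 4.59% of WT nuclei reached these numbers. The remaining 118 HNKO 1 nuclei showed none of the 5 at this depth.

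Over the whole table, 8560 genes had enough UMIs to compare HNKO 1 with the WT mice. HNKO 1 was called higher for 47 (0.549%) and lower for 45 (0.526%). After TMM scaling, which shifted the median gene by 0.07 on the log2 scale, the counts were 52 (0.607%) and 42 (0.491%). Outside the WT range at any size lay many more genes, with 28.7% above and 32.3% below all 3 WT mice, so a position outside the WT range is common and is not by itself a result for a gene.

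Of the 47 higher genes, 41 were protein coding. Those named here are from the 15 largest with at least 100 UMIs in HNKO 1 and a few others met in the gene lists below. Cib3, a calcium- and integrin-binding protein gene at chr8:72204335-72212837, had the largest difference, at 122 CPM in HNKO 1 (113 to 132) against 5.11, 4.06 and 3.16 CPM in the WT mice, or 29.8-fold. HNKO 2 was higher than HNKO 1 at 234 CPM and HNKO 3 lower at 54.8 CPM, so a high Cib3 level was not particular to HNKO 1. Pls1, which encodes the actin-bundling protein plastin 1, was at 53.9 CPM against 1.99, 3.30 and 2.27 CPM in the WT mice. Scara5, a scavenger receptor known to take up ferritin, was at 39.3 CPM (34.2 to 44.9) against 2.41, 1.02 and 1.47 CPM in the WT mice, and here the nuclei of Central HNKO 1 were higher still, at 156 CPM. HNKO 2 and HNKO 3 were at 4.24 and 2.31 CPM for Scara5, so its high level went with HNKO mouse 1 in both of its main hepatocyte clusters.

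Nrg1 encodes neuregulin 1, a growth factor that binds the receptors ERBB3 and ERBB4. It was at 238 CPM in HNKO 1 (225 to 251) against 20.3, 22.0 and 21.6 CPM in the WT mice, an 11.2-fold difference from a WT range that was narrow. The UMIs of Nrg1 were unevenly spread: 10% of the nuclei held 71.9% of them, against 41.6% for Ntrk2, and after thinning 14.6% of HNKO 1 nuclei had a Nrg1 UMI with 9.86% of endothelial nuclei beside them. Btc, betacellulin, a ligand of the EGF receptor, was at 24.3 CPM against 4.54, 2.54 and 5.21 CPM.

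The remaining genes of this set had varied roles. Osbpl3, an oxysterol-binding protein family gene, was at 36.6 CPM against 1.99, 2.79 and 1.13 CPM in the WT mice. Veph1 was at 59.2 CPM against 5.08, 5.43 and 2.06, and Nid1, which encodes the basement membrane protein nidogen 1, at 24.9 CPM against 1.23, 3.36 and 1.35. Complement component C6 was at 110 CPM against 20.2, 4.95 and 2.50 CPM, with WT mouse 1 highest among the WT mice. The phosphodiesterase Pde10a was at 18.6 CPM against 1.13, 1.21 and 2.15. Chrm3, the M3 muscarinic acetylcholine receptor, was at 146 CPM against 39.6, 16.2 and 7.45. The noncoding RNA Pvt1 was at 111 CPM against 14.0, 18.0 and 7.56, and Rims2, a vesicle-release scaffold, at 142 CPM against 10.0, 24.2 and 21.6. Pakap.1 and Pakap.2 were at 78.3 and 76.9 CPM against WT values of 2.94 to 5.20 CPM, but these overlapping entries can share reads and their separate values are uncertain. For each of these genes the lower counting bound in HNKO 1 lay above the highest WT mouse.

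**Figure D2:**
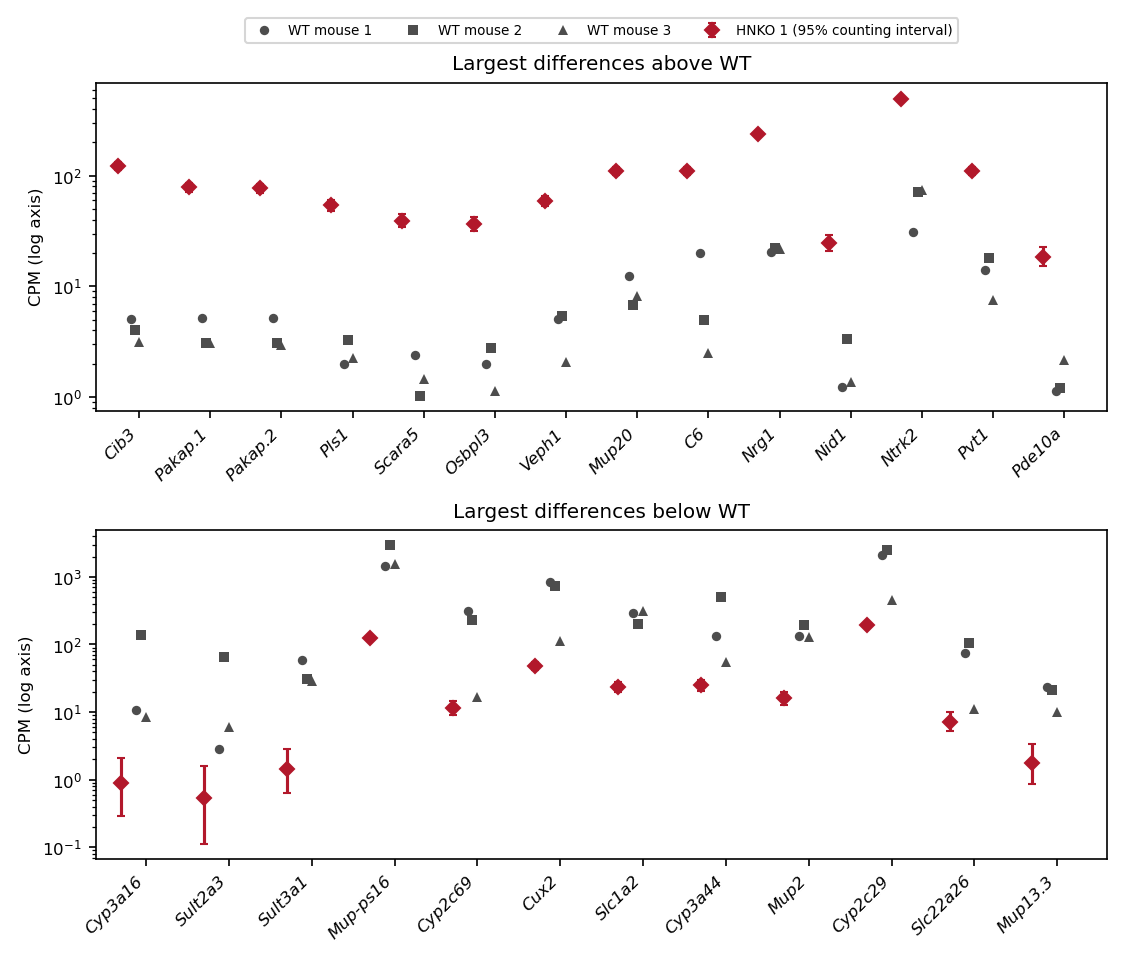
Levels in CPM on a log axis in HNKO 1 (with 95% counting intervals) and in the 3 WT mice, for 14 of the 15 genes with the largest higher calls (upper panel) and the 12 with the largest lower calls (lower panel). In the upper panel the WT mice cluster tightly for Nrg1 and Pls1, and in the lower panel they are spread widely for the Cyp and Sult genes.

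The genes called lower included many drug- and steroid-metabolizing enzymes and major urinary proteins. Of the 45, 14 were among the 58 Cyp genes compared, 3 among the 11 Sult genes and 6 among the 10 Mup genes, and these families made up 0.678, 0.129 and 0.117% of all 8560 genes compared. These families have near-identical copies among which reads are split by estimation, so the values of their single members are uncertain. Cyp3a16 was at 0.905 CPM in HNKO 1 (0.294 to 2.11) against 10.9, 137 and 8.58 CPM in the WT mice. WT mouse 2 was far above the other WT mice, and without it the gene was no longer called. Sult3a1, a sulfotransferase, was at 1.45 CPM (0.625 to 2.85) against 58.2, 31.0 and 28.9 CPM, with all WT mice well above HNKO 1. Sult2a3 held 3 UMIs in HNKO 1, which is 0.543 CPM (0.112 to 1.59), against 2.84, 64.7 and 6.10 CPM. Mup-ps16, a major urinary protein pseudogene, was at 126 CPM against 1454, 2935 and 1571 CPM, and Mup2 at 16.2 CPM against 135, 197 and 128, so both lay below every WT mouse with a comparatively narrow WT range.

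Cux2 encodes a cut-homeobox transcription factor that is known to be expressed in the female liver, and lies at chr5:121856366-122050102 on the minus strand. It was at 48.2 CPM in HNKO 1 (42.6 to 54.3) against 838, 742 and 114 CPM in WT mice 1, 2 and 3, and 47.1 CPM in the other hepatocyte nuclei of HNKO mouse 1. HNKO 1 was 11.7-fold below the WT mean, but WT mouse 3 lay nearer to HNKO 1 than to the other WT mice. After thinning, Cux2 was seen in 4.97% of HNKO 1 nuclei and 8.45% of endothelial nuclei, so the share in HNKO 1 was no higher than theirs. The part of free RNA in the Cux2 level was not tested. HNKO 2 and HNKO 3 were at 427 and 515 CPM. Cux2 was thus low in both sets of hepatocyte nuclei from HNKO mouse 1 and not in the clusters from HNKO mouse 3.

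Other named genes among the 12 largest lower calls were Cyp2c69, Cyp3a44, Cyp2c29, Slc22a26, Mup13.3 and Slc1a2. Cyp2c29 was at 194 CPM against 2109, 2515 and 460 CPM in the WT mice, with HNKO 2 and HNKO 3 close to HNKO 1 at 211 and 204 CPM. The transporter Slc22a26 was at 7.24 CPM against 73.6, 105 and 11.3 CPM. For both genes WT mouse 3 was the lowest WT mouse, as it was for Cux2 and Cyp2c69 (11.5 CPM in HNKO 1 against 317, 227 and 16.6). Cyp3a44 was at 24.9 CPM against 133, 507 and 55.2 CPM, and Mup13.3 at 1.75 CPM against 23.9, 21.0 and 10.1. Inmt, an indolethylamine methyltransferase, was at 15.03 CPM against 99.9, 90.9 and 61.6 CPM, and Serpina6, which encodes corticosteroid-binding globulin, at 15.2 CPM against 87.7, 113 and 42.7. Together with Cux2, Mup-ps16 and Cyp2a5, these made up the named genes past 4-fold below WT, HNKO 2 and HNKO 3 at once by CPM. After TMM scaling, described below, Cux2 and Inmt were the genes left.

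Which WT mice were compared mattered more for the lower than for the higher genes. Without WT mouse 1, 2 or 3 in turn, 41, 42 and 42 of the 47 higher calls were kept, and 36 were kept in all 3 cases. Of the 45 lower calls 34, 28 and 41 were kept, and 22 in all 3 cases. Cyp3a16, Sult2a3, Cyp3a44, Cyp3a41a, Acot3 and Cyp17a1 were among the calls lost without WT mouse 2, and Cyp4a14, Sult2a8 and Vnn1 among those lost without WT mouse 1.

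Many of the lower genes are known to be higher in livers of female than of male mice, a difference set by the pattern of growth hormone release. A list of 23 such genes was drawn up after these values were seen, so its counts are not independent evidence of its direction. Of the 22 with enough UMIs, all 22 had negative log2 differences, 17 lay below all 3 WT mice and 12 were called lower, with a median of -2.37 against -0.04 over all genes. After TMM scaling 20 of the 22 were negative, 2 were positive and 11 were called lower. Cyp2b9 was at 916 CPM in HNKO 1 against 2237, 3236 and 1681 CPM in the WT mice, a difference that did not reach 4-fold. Values in the other HNKO mice differed by gene: for Cux2, HNKO mouse 2 was at 766 and HNKO mouse 3 at 462 CPM, whereas for Cyp3a44 they were at 238 and 11.4 CPM. In the same way, of 18 genes known to be higher in males only 7 had enough UMIs, and 2 of these, Mup20 and C6, were called higher, with a median of 0.30. Mup20, which encodes the male pheromone darcin, was at 111 CPM in HNKO 1 against 12.3, 6.73 and 8.24 CPM in the WT mice, and at 7.10 CPM in HNKO mouse 2 and 91.0 CPM in HNKO mouse 3. The male genes Cyp4a12a and Elovl3 were near 0, at 1.18 and 0.181 CPM. Most male genes were thus too low to compare.

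**Figure D3:**
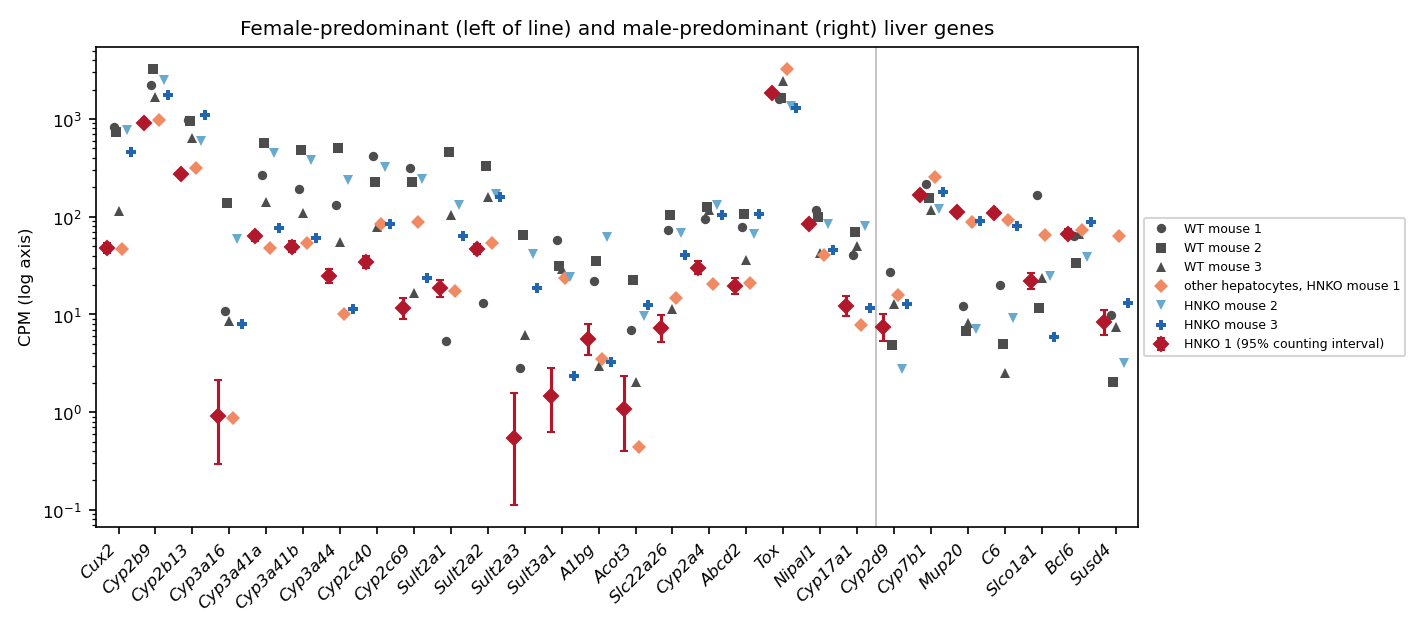
Levels in CPM on a log axis of 21 of the 22 female-predominant genes (left of the dividing line) and the 7 male-predominant genes (right) with enough UMIs, in HNKO 1, the 3 WT mice, the other hepatocyte nuclei of HNKO mouse 1 and the hepatocyte nuclei of HNKO mice 2 and 3 outside HNKO 1. Values of 0 are not drawn. For 16 of the 21 female-predominant genes drawn HNKO 1 lies below all 3 WT mice, and for Mup20 and C6 HNKO mouse 3 lies near HNKO 1.

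HNKO 1 held little of the innermost pericentral signal. A low pericentral level was not particular to HNKO 1: the summed list was at 858 CPM in HNKO 1, 822 in HNKO 2 and 2289 in HNKO 3. In WT mice 1, 2 and 3 it was at 4221, 4331 and 2518 CPM. Of 15 pericentral genes 11 could be compared, 10 lay below all 3 WT mice, and 4 were called lower, with a median log2 difference of -1.18. Glul, glutamine synthetase, which marks the hepatocytes next to the central vein, was at 21.1 CPM in HNKO 1 (17.4 to 25.2) against 123, 130 and 121 CPM in the WT mice. The glutamate transporter Slc1a2 was at 23.4 CPM (19.5 to 27.8) against 291, 202 and 311 CPM. In the other hepatocyte nuclei of HNKO mouse 1, which were mostly Central HNKO 1, these genes stood at 799 and 3573 CPM. The pericentral hepatocytes of that mouse thus lay in another cluster, and when the WT cluster Central 1 was taken out of the WT sums, Slc1a2 went from -3.46 to -0.59 and Glul from -2.51 to -1.31 on the log2 scale. After thinning, a Glul UMI was seen in 2.86% of HNKO 1 nuclei and 14.1% of the endothelial nuclei, so the share in HNKO 1 was the lower one. The part of free RNA in it was not tested. Cyp2e1, a broader pericentral gene, was at 348 CPM against 1097, 726 and 1150 CPM, and the Wnt coreceptor gene Lgr5 at 45.4 CPM against 86.8, 139 and 87.1. With Central 1 taken out, 46 of the 47 higher and 39 of the 45 lower calls were kept.

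Periportal genes differed less from WT. Of 12 compared, none was called, 8 had negative differences, 7 lay below and 2 above all 3 WT mice, and the median was -0.25. Sds, serine dehydratase, was at 682 CPM in HNKO 1 against 432, 466 and 871 CPM in the WT mice, and Hal, histidine ammonia-lyase, was at 354 CPM against 719, 622 and 459. The urea cycle gene Ass1 was at 2559 CPM against 1043, 1124 and 2488 CPM. Sds thus lay within the WT range, Hal below it and Ass1 just above it.

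Some zonated genes varied within HNKO 1 and others did not. Nuclei with a UMI of Hal but none of Cyp2e1 after thinning (118 nuclei) were set beside nuclei with Cyp2e1 but not Hal (123 nuclei), while 26 had both and 397 neither. Sds was at 1127 CPM in the former and 268 CPM in the latter, and Cyp2f2, a periportal P450, at 203 and 40.7 CPM. Cyp7a1, the rate-limiting enzyme of bile acid synthesis, ran the other way, at 102 and 341 CPM. In WT nuclei split alike, Sds was at 1055 and 205 CPM, Cyp2f2 at 226 and 48.9 and Cyp7a1 at 148 and 458. In HNKO 1, Slc1a2 was at 8.47 and 114 CPM, whereas Cyp1a2 had 1 UMI in each set. The intervals of Gls2 (220 and 130 CPM) and of Arg1 (1305 and 1000 CPM) overlapped. Pck1 (2703 and 2764 CPM) and Cps1 (18008.5 and 19764.2 CPM) were not higher in the nuclei with Hal. The marker genes did not follow this axis in the same way: Ntrk2 was at 390 CPM (285 to 520) and 577 CPM (451 to 728), Slc10a2 at 203 and 154 CPM, Tmc7 at 153 and 138 CPM, Cxadr at 805 and 715 CPM and Ablim3 at 432 and 407 CPM. The intervals of Ntrk2 overlapped, and the other markers differed by less than Sds, Cyp2f2 or Cyp7a1 did. Chrm3 and C6 did vary, with Chrm3 at 186 and 56.9 CPM and C6 at 33.9 and 154 CPM. Both leaned the same way in WT nuclei, with Chrm3 at 52.4 and 6.61 CPM and C6 at 0 and 13.2 CPM.

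**Figure D4:**
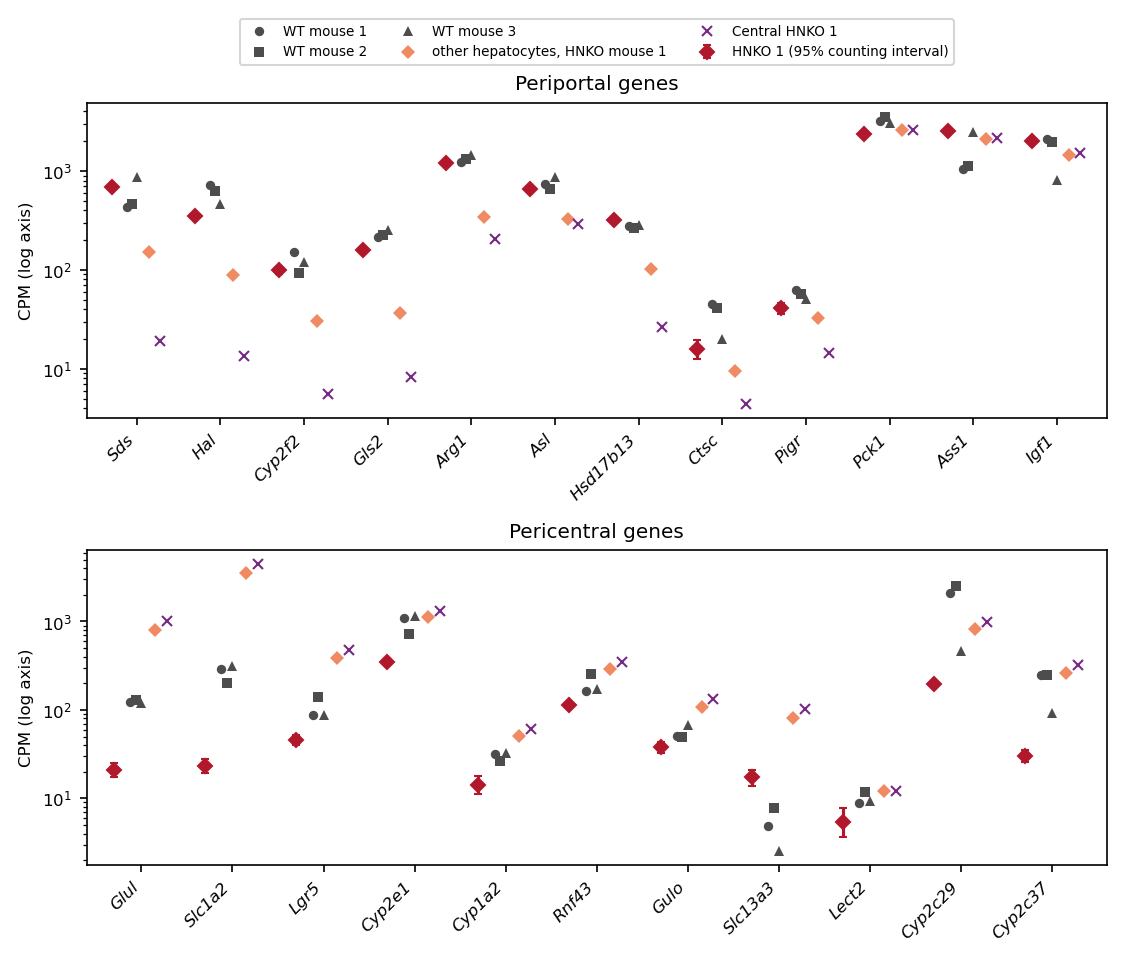
Levels in CPM on a log axis of 12 periportal genes (upper panel) and 11 pericentral genes (lower panel) in HNKO 1 (with 95% counting intervals), the 3 WT mice, the other hepatocyte nuclei of HNKO mouse 1 and Central HNKO 1. HNKO 1 lies below the WT mice for 10 of the 11 pericentral genes, while Central HNKO 1 lies far above HNKO 1 for Glul and Slc1a2.

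Genes of NAD metabolism were not called. Of 15 genes of NAD synthesis, 10 had negative and 5 positive differences, with a median of -0.17. Acmsd, which diverts the tryptophan route away from NAD, was at 90.4 CPM in HNKO 1 against 20.1, 23.6 and 51.3 CPM in the WT mice, and Kynu, kynureninase of the tryptophan route, at 2580 CPM against 1796, 1348 and 1414 CPM. Nmrk1, a nicotinamide riboside kinase, was at 37.0 CPM against 61.5, 65.9 and 68.5. HNKO 1 was above every WT mouse for Acmsd and Kynu and below every WT mouse for Nmrk1. Of 13 NAD-consuming genes 6 could be compared, all with small negative differences and a median of -0.26, and Sirt1 was at 13.0 CPM against 24.3, 24.5 and 18.3. The 13 mitochondrially encoded genes all had negative differences, with a median of -0.48, and 11 lay below all WT mice. These RNAs are made in mitochondria and so come from outside the nucleus.

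Bile acid genes apart from Slc10a2 were not called. Over 18 genes compared the median was -0.06, with 9 positive and 9 negative. Slc10a1, the basolateral bile acid uptake carrier NTCP, was at 90.2 CPM in HNKO 1 against 360, 248 and 276 CPM in the WT mice, and the uptake carrier Slco1b2 at 1421 CPM against 3233, 2999 and 2556. Abcb4, the canalicular phospholipid exporter, was at 1130 CPM against 813, 700 and 625, and Cyp7a1 at 194 CPM against 471, 521 and 171. In the sum of HNKO 1 nuclei the apical carrier Slc10a2 was thus above all WT mice and the basolateral carriers Slc10a1 and Slco1b2 below them.

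The lists for the families of the other markers include the markers themselves, so their medians are not those of the other members alone. In the neurotrophin list 9 of 17 genes could be compared, with a median of -0.01 and Ntrk2 among the called genes. The preferred ligands of TrkB were scarce, with Bdnf at 1.27 CPM and Ntf5 listed at 0 in HNKO 1. In the tight junction list 11 of 16 were compared, with a median of 0.34 and Cxadr the called gene, and occludin (Ocln) was at 130 CPM against 88.5, 84.1 and 72.8. Among TMC and ABLIM genes 5 of 10 were compared, and 4 lay above and 1 below all 3 WT mice. Their median of 1.59 was the value of the marker Ablim3, and Ablim1 was at 434 CPM against 231, 262 and 165. In a list of neuregulin and EGF family genes made after the values were seen, Nrg1 and Btc were called higher among 9 compared, with a median of 0.05, while the receptor genes Erbb4 (1747 CPM against 1995, 1788 and 1570) and Egfr (3930 CPM against 4398, 1800 and 2152) stayed within the WT range.

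Lipid genes differed by pathway. Of 14 lipogenesis genes 12 had negative differences and 8 lay below all WT mice, with a median of -0.70 and none called, and malic enzyme (Me1) was at 213 CPM against 757, 458 and 477. Among 14 genes of fatty acid oxidation and PPARα targets the median was -0.52, and Cyp4a10, Cyp4a14 and Vnn1 were called lower, with Cyp4a10 at 4.16 CPM against 34.9, 52.2 and 12.4. Cholesterol genes leaned the other way, with a median of 0.38 over 13 genes and none called. Xenobiotic metabolism genes had a median of -1.12 over 18 genes, with Cyp3a41a, Cyp2c29, Cyp2a5 and Sult2a8 called lower. These lists share members with the female-predominant list, so their counts are not separate.

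No gene of the regulator, stress and injury lists was called against WT by the 4-fold measure, though some leaned in one direction. Of 20 hepatocyte transcription factors none was called, with a median of -0.18, and Ppargc1a, the coactivator of gluconeogenesis and mitochondrial genes, was at 1065 CPM against 435, 639 and 878. Integrated stress response genes had a median of 0.16 over 7 compared. All 7 were positive, with 3 above and 0 below all WT mice, and Atf3 was at 140 CPM against 44.3, 54.6 and 33.2. The p53 target list had a median of 0.36 over 7, with 5 above and 0 below all WT mice, where 28.7% of all genes lay above. The acute phase list had a median of -0.19 over 9 and the circadian clock list -0.45 over 15. None was called in any of these lists. Of 11 genes of the YAP-TEAD list 3 could be compared and all 3 lay above the WT mice, with a median of 0.85, among them Tead1 at 405 CPM against 188, 153 and 179. The fetal hepatocyte list had 1 gene with enough UMIs, Prom1, at 17.2 CPM against 1.09, 15.7 and 0.677, and the cell cycle list had 1, Ccnd1, at 11.95 CPM against 4.26, 15.7 and 9.71. Mki67 was at 0.543 CPM, 3 UMIs in all, so this proliferation gene was close to undetected.

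Markers of other cell types were examined because some higher genes are also expressed in bile duct cells. Of 8 cholangiocyte markers, Epcam, Krt7 and Krt19 had 0 UMIs in HNKO 1, which allows a level of up to 0.543 CPM each. These keratin and Epcam RNAs were also scarce in the 40 cholangiocyte nuclei of HNKO mouse 1, where they reached at most 3.84 CPM, so 0 UMIs of them does not separate HNKO 1 from cholangiocytes. The summed level of the list was 692 CPM in HNKO 1 against 315, 345 and 297 CPM in the WT mice, 624 CPM in HNKO 2, 344 CPM in HNKO 3 and 8949 CPM in those cholangiocyte nuclei. Pkhd1 made up most of it, at 644 CPM against 298, 321 and 286, and Sox9 and Cftr had 9 and 2 UMIs. Of the 8 markers 3 had enough UMIs to compare, and all 3 lay above all WT mice, with a median log2 difference of 1.09. By CPM 0 of them were called, and after TMM scaling 1 was called higher. Of the 47 genes called higher, 31 (66.0%) had a higher level in the cholangiocyte nuclei than in HNKO 1, compared with 57.5% of all 8560 genes and 9 of the 45 called lower. Measured against the level in the 40 cholangiocyte nuclei, HNKO 1 held 12.9% for Pkhd1, 0.787% for Bicc1, 509% for Ntrk2, 398% for Cib3, 223% for Slc10a2 and 81.4% for Cxadr. Scara5 had 0 UMIs in the cholangiocyte nuclei and Tmc7 had 2. The part of bile duct RNA in the higher genes, those named here included, was not tested.

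Stellate markers summed to 333 CPM in HNKO 1 against 171 to 209 CPM in the WT mice, of which Reln gave 178 CPM against 33.1, 37.8 and 82.98, while Dcn, Lrat and Pdgfrb were at 1.81, 0.543 and 0.543 CPM. Endothelial markers summed to 31.1 CPM against 29.9 to 37.6, Kupffer cell markers to 5.43 CPM against 5.32 to 9.97 and CD45+ cell markers to 9.47 CPM against 8.18 to 15.1. The endothelial, Kupffer and CD45+ sums thus lay within the WT range, and the part of other cells in the Reln level was not tested.

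Against the 154 other hepatocyte nuclei of the same mouse, 22 of 5734 genes were higher in HNKO 1 by at least 4-fold (0.384%) and 28 lower (0.488%), and after TMM scaling 25 (0.436%) and 26 (0.453%). Zonated genes were prominent in this comparison: the pericentral genes had a median of -2.13 with 6 of 10 called lower, and the periportal genes a median of 1.62 with 2 of 11 called higher. Of the 47 genes higher than WT, 7 were also past 4-fold here. The median of all 47 was 0.70, beside 0.11 over all genes compared. Nearly the same HNKO 1 nuclei had served to pick these 47 genes. Cib3 (20.9 CPM in the other nuclei) was among the genes with a clear difference. In the sums, Nrg1 (198 CPM), C6 (93.3 CPM) and Elmo1 (279 CPM in the other nuclei and 266 in HNKO 1) hardly differed. Mid1 was higher in the other nuclei, at 383 CPM against 131 in HNKO 1. The Nrg1 sum was not spread evenly. After thinning, a Nrg1 UMI was seen in 1.06% of Central HNKO 1 nuclei, the main cluster among the others, and in 14.6% of HNKO 1 nuclei. Some of the genes that set HNKO 1 apart from WT were thus at a similar or higher level in the sum of the other hepatocytes of its mouse.

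HNKO 1 and the clusters HNKO 2 and HNKO 3 came from different HNKO mice, so these comparisons are also between HNKO mice 1 and 3. They depended on scaling. By CPM, 91 of 7255 genes were higher in HNKO 1 than in HNKO 2 (1.25%) and 107 lower (1.47%). After TMM scaling, which shifted the median gene by 0.52, the counts were 188 (2.59%) and 20 (0.276%), and the share of higher calls went from 46.0 to 90.4%. Against HNKO 3 the counts were 136 (2.13%) and 94 (1.47%) of 6380 by CPM, and 251 (3.93%) and 29 (0.455%) after a shift of 0.53, with the share of higher calls going from 59.1 to 89.6%. Differences from HNKO 2 and HNKO 3 are therefore given after TMM scaling, relative to that shift.

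Several genes of the urea cycle, chosen for display after their values were seen, had higher levels in HNKO 1 than in both clusters. Cps1, which starts the urea cycle, was 2.84 and 2.32 higher on the log2 scale than in HNKO 2 and HNKO 3, Ass1 2.84 and 2.65, and Asl 2.53 and 2.24. By CPM the 4-fold limit was not reached by Cps1 against HNKO 3 (1.77) or by Asl against HNKO 2 and HNKO 3 (1.99 and 1.70). Arg1, the last step of the cycle, differed less, by 1.09 and 1.39. Pck1, the rate-controlling enzyme of gluconeogenesis, was 2.69 and 2.60 higher. By CPM, Pck1 was at 2357 in HNKO 1, 530 in HNKO 2 and 568 in HNKO 3, against 3180, 3494 and 3062 in the WT mice, so HNKO 1 lay near WT and the other clusters below it. In the periportal list 5 of 12 genes were called higher against each cluster, with medians of 0.73 and 1.56 beside 0.08 and 0.20 over all genes. By CPM 2 and 3 of the 12 were called higher, with medians of 0.19 and 1.02 beside -0.44 and -0.34 over all genes, and 6 of the 12 were negative against HNKO 2.

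Several regulators showed the same pattern. Ppargc1a was 3.26 and 3.68 higher in HNKO 1 than in HNKO 2 and HNKO 3, and Zbtb16, a zinc-finger repressor, 3.38 and 3.94 higher. Trp53inp1, a p53 target, was at 1638 CPM in HNKO 1, close to the 1362, 1515 and 1533 CPM of the WT mice, and at 168 and 146 CPM in HNKO 2 and HNKO 3. Egfr was 2.90 and 3.14 higher, and Cyp27a1, the sterol hydroxylase of the alternative bile acid route, 3.804 and 2.86 higher. Foxa2 and Cebpa had negative differences from HNKO 2 (-1.96 and -1.48), so regulators of hepatocyte identity did not all share a direction. The genes named in this paragraph were picked for display after their values were seen.

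Other groups separated HNKO 2 from HNKO 3. Cholesterol genes had a median of -1.05 against HNKO 2, with 13 of 14 negative, and of -0.02 against HNKO 3, and by CPM the medians were -1.58 and -0.57. The mitochondrially encoded genes had a median of 0.11 against HNKO 2, which turned to -0.40 with all 11 negative by CPM, and of 1.28 against HNKO 3 (0.74 by CPM). Among the 5 markers the medians were 2.61 and 2.92, and Cxadr was at 0.97 against HNKO 2 and 2.92 against HNKO 3. Of the 47 genes higher than WT, 7 were past 4-fold against HNKO 2 and 26 against HNKO 3. The medians of all 47 were 0.70 and 2.16, and these comparisons share the HNKO 1 nuclei with the one against WT. Cib3 and Nrg1 had small differences from HNKO 2 (-0.39 and -0.19) and larger ones from HNKO 3 (1.69 and 2.92). Rtn4, which encodes an endoplasmic reticulum shaping protein, differed from HNKO 2 by -2.10 and was at 61.6 CPM in HNKO 1 against 41.7, 38.8 and 22.4 CPM in the WT mice. Sord, sorbitol dehydrogenase, was below WT in HNKO 1 (179.5 CPM against 484, 459 and 530) and above WT in HNKO 2 and HNKO 3, at 646 and 1017 CPM. The genes past 4-fold over WT, HNKO 2 and HNKO 3 at once were Tmc7, Slc10a2 and Scara5 by CPM, and 7 genes after TMM scaling, which added Rnf144a, Rims2, Mid1 and Gm43305.

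**Figure D5:**
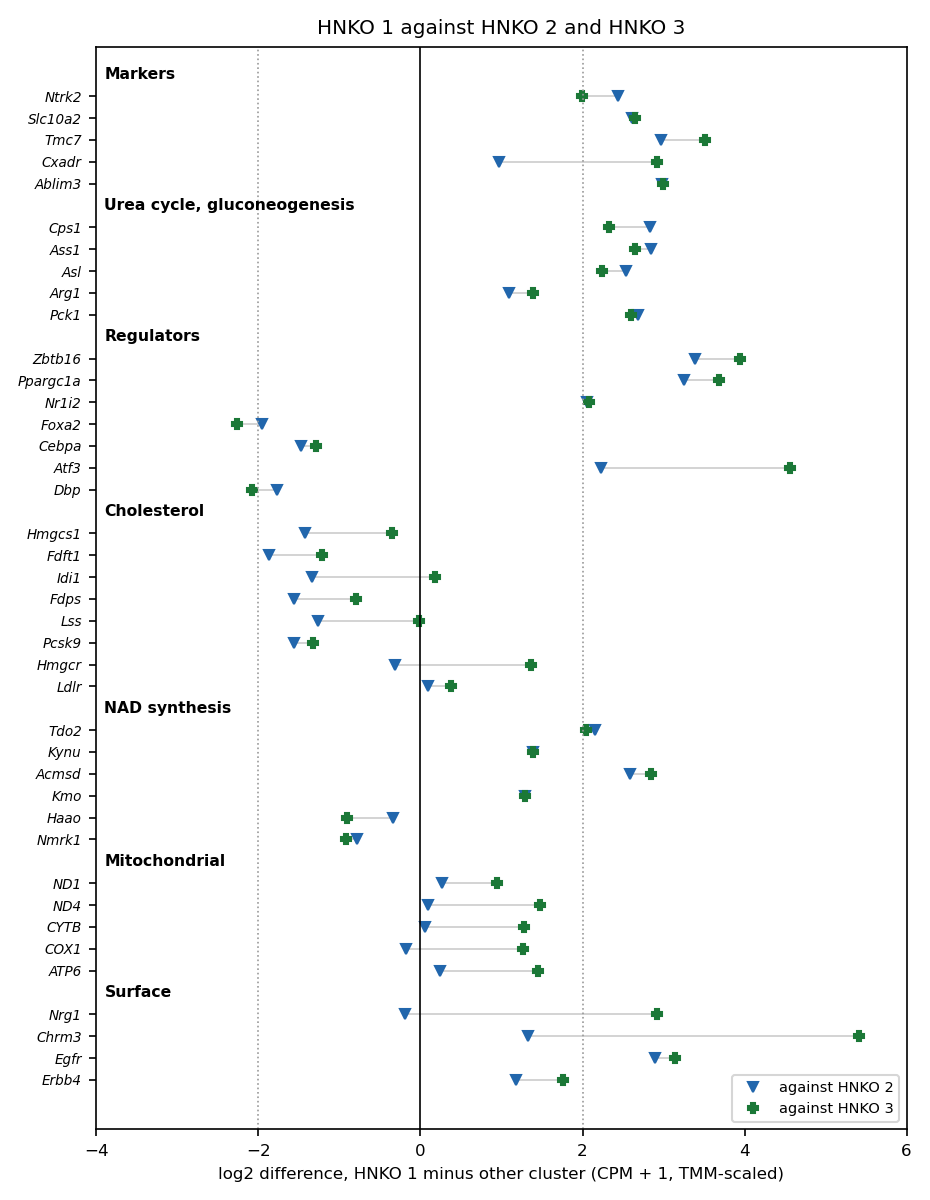
Log2 differences after TMM scaling between HNKO 1 and HNKO 2 (triangles) and between HNKO 1 and HNKO 3 (plus signs) for genes chosen for display after their values were seen, grouped by role, with dotted lines at 4-fold in either direction. Cps1, Ass1, Asl and Pck1 lie beyond the upper line for both clusters and Arg1 does not, while the cholesterol genes lie lower against HNKO 2 than against HNKO 3.

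Genotype was tested over mice with edgeR's quasi-likelihood test on the summed hepatocyte nuclei outside HNKO 1, 3 HNKO mice against the same 3 WT mice. No gene of 11353 passed an adjusted p of 0.05 (0%). At an unadjusted p under 0.05 there were 547 (4.82%), and DESeq2 called 9. HNKO mouse 1 entered this test with 154 nuclei, of which 93 were Central HNKO 1, and the nuclei with the high marker levels had been taken out, so no result for the 5 markers is drawn from it. Nampt differed by -0.08 (SE 0.31, adjusted p in edgeR 0.981). With HNKO 1 put back into the sums, 0 of 11810 genes passed (0%), with 698 (5.91%) at an unadjusted p under 0.05 and 21 by DESeq2, and without HNKO mouse 2 edgeR passed 32. In simulated counts for the test outside HNKO 1, 85.5% of genes given a 4-fold change were recovered. The simulation gave all 3 HNKO mice the same change and capped the spread between mice. This share can therefore overstate the recovery in these data. The HNKO mice differed from each other, for example with Nrg1 at 28.5 CPM in HNKO mouse 2 and 231 CPM in HNKO mouse 3 outside HNKO 1.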

How the data were processed

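The authors aligned single-nucleus reads from pooled livers with alevin to GRCm38 and deposited estimated counts of UMIs per gene and nucleus, of which 10.1% of nonzero values were not whole. They also deposited cluster names and hashtag counts per nucleus (101 to 1244 here) and an SCTransform table of normalized scores. Nuclei had already been filtered to single hashtags, and no further filter or doublet caller was applied. Which of the 2 pools a nucleus came from is not given in the sources used here, so comparisons within a pool, and the rule's condition that a gene pass 4-fold in each pool, could not be applied. The 4 samples in the labels are pools, so mice were taken from the hashtag of each nucleus.

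Counts were summed over nuclei of a mouse or cluster and expressed as CPM. HNKO 1 was compared with 3 WT mice, HNKO 2, HNKO 3 and the other hepatocyte nuclei of its mouse, without a test, by a 4-fold rule with at least 100 UMIs and 1 CPM added. Genotype was tested over 3 against 3 mice on rounded sums with edgeR 4.0.16 (TMM, quasi-likelihood, Benjamini-Hochberg), with DESeq2 1.42.0 as an alternative, and checked on simulated data. The SD measures the spread between the 3 WT mice, and the p-values rest on 3 mice of each genotype. Named genes were the 5 markers, Nampt, Rtn4 and Sord, the 15 largest higher and 12 largest lower calls, up to 8 higher and 5 lower genes past 4-fold against WT, HNKO 2 and HNKO 3 at once, and up to 6 members of each of 28 gene lists, passing over unnamed gene models. Some genes that these rules select are not reported here. The members, lists and tests were chosen with earlier results of these data known, and 3 more lists after the values here were seen. Gene positions are from GENCODE vM21 and promoters from RefSeq on GRCm38.p6. Summaries used Python 3.11.15, numpy 2.4.6 and pandas 2.3.3.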

Additional observations from a re-analysis of the deposited data

How the results depend on the processing

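HNKO 1 rests on 1 mouse, so no setting can separate the cluster from that animal, and counting depth limits the comparison to 8560 genes against WT. Of 98 alternative values, 77 stayed within 1.5 times the reported count or, for the log2 differences of single markers, within the spread between WT mice, and 21 moved. All 50 marker values were among those that stayed, so the 21 that moved were all counts of genes. The WT spread is a wide limit for the markers (SD 1.16 on the log2 scale for Tmc7). A marker value can therefore stay within it and still lose its 4-fold call. A total of calls has no sign, and it can stay while the direction of its calls shifts. With TMM scaling the 198 calls against HNKO 2 became 208, but the higher calls among them went from 91 to 188. Against HNKO 3 the 230 calls became 280, and the higher calls went from 136 to 251. All 50 alternative marker values were positive and 38 were at 2 or more. Tmc7 lost its 4-fold call without WT mouse 1 (1.86) or WT mouse 2 (1.78), and Ablim3 had no call to lose. Against WT, 92 genes were called, with 543 at a 2-fold limit, 43 after thinning and 78 to 112 when leaving out 1 WT mouse. Against HNKO 2, the 198 calls became 1561 at 2-fold, 323 with at least 20 UMIs, 351 without a filter and 79 after thinning. Against HNKO 3, the 230 calls became 1428, 403, 481 and 82 in the same order. Against the other hepatocyte nuclei of HNKO mouse 1, the 50 calls became 327, 134, 181 and 5, and 84 outside pericentral clusters, an alternative chosen after seeing the data. The 0 genes called by genotype in edgeR became 35 without a filter, 21 by DESeq2 and 0 to 32 when leaving out 1 mouse over all hepatocytes (32 without HNKO mouse 2), and 89, 9 and 0 to 2 outside HNKO 1. The causes were not tested. Pool alternatives were not run because the pool of a nucleus is not given in the sources used here. No paired analysis was possible because the pool numbers in the labels pair RNA and hashtag libraries of the same nuclei and the mice share no numbers across genotypes.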
